A study of Mus musculus with 8 samples.

Results

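Genes of iron handling and of ferroptosis, 10 in all, were picked by symbol from the deposited expression table: Tfrc, Slc40a1, Fth1, Ftl1, Ncoa4, Gpx4, Aifm2, Slc3a2, Acsl4 and Lpcat3. All 10 were listed among its 45777 genes, and all 10 had enough reads to be tested. RNA had been sequenced from primary hepatic stellate cells of wild-type male C57BL/6 mice. An siRNA against the kinase PAK4 had been given to the cells of 4 libraries (siPAK4) and a control siRNA to those of the other 4 (siControl), and the study asked how a deficiency of PAK4 alters the stellate cell transcriptome. The labels do not say whether the numbered replicates came from separate mice, isolations or dishes, so p-values measure the spread between these libraries, which may be technical.

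Cells take up iron with the transferrin receptor, store it in shells of ferritin heavy and light chains, release it when ferritin is delivered to the lysosome, and export it through ferroportin. Ferroptosis is a form of cell death in which iron drives the oxidation of polyunsaturated membrane phospholipids. It is held back by glutathione, made from imported cystine, and by enzymes that reduce lipid peroxides or recycle radical-trapping quinones. In the liver, macrophages recycle iron from red cells and hepatocytes store most of it, while stellate cells are known for storing vitamin A and, once activated, for depositing collagen.

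Part of this system is set after transcription. Iron regulatory proteins bind a hairpin, the iron-responsive element, that blocks translation when it lies in a 5′ UTR and protects the RNA from decay when it lies in the Tfrc 3′ UTR. The elements are shown because 4 of the 10 genes carry them. For Fth1, Ftl1 and Slc40a1, with an element in the 5′ UTR, an RNA level and a protein level can differ. In Tfrc the elements lie in the 3′ UTR, where they bear on the RNA level itself. A search of GENCODE M21 transcripts (GRCm38, the build also called mm10) looked for a C, 5 bases, the loop CAGTGN with a last base other than G, and 5 bases that pair with the first 5, with G-T pairs allowed. Capitals mark the 6 bases of the loop and 5 further bases are shown on each side of the element, all read 5′ to 3′ along the RNA with T for U.
Fth1, 5′ UTR, chr19:9982733-9982759, plus strand: tcctgcttcaaCAGTGCttgaacggaa
Ftl1, 5′ UTR, chr7:45459780-45459806, minus strand: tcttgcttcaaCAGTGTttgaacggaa
Slc40a1, 5′ UTR, chr1:45925466-45925492, minus strand: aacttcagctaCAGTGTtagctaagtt
Tfrc, 3′ UTR, chr16:32631220-32631246, plus strand: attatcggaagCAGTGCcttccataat
Tfrc, 3′ UTR, chr16:32631599-32631625, plus strand: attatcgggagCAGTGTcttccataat
Tfrc, 3′ UTR, chr16:32631664-32631690, plus strand: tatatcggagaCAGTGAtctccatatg
Tfrc, 3′ UTR, chr16:32631711-32631737, plus strand: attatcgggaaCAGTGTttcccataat
Of 21877 protein-coding genes searched, 0.105% held the element in a 5′ UTR and 0.457% in a 3′ UTR. No gene of the related iron and ferroptosis lists described below held it in a UTR by this definition. The search required all 5 pairs without a break, so an element with a mismatch or an extra base there would be missed. The absence of a match does not show that a gene lacks an element. A match does not show that a site was bound.

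Library totals ran from 55728583 to 59205049 counts in siPAK4 and from 57297561 to 61535063 in siControl. Pak4 had 6.32 ± 1.13 CPM (read counts relative to the TMM-scaled library size) in siPAK4 and 17.2 ± 1.14 CPM in siControl (SD, n = 4 each), and its difference was −1.44 on the log2 scale (adjusted p = 9.4e-06). Adjusted p-values here and below are from edgeR's quasi-likelihood test over 17975 tested genes. One library, siPAK4 replicate 3, stood apart from the other siPAK4 libraries on the second principal component, which held 13.4% of the variance, and results that rest on it are given with and without it. Markers of stellate cells and fibroblasts summed to 967 to 1188 CPM in siPAK4 and 1574 to 2001 CPM in siControl, and 6 of 12 tested were lower and 0 higher. Of the 2 most abundant, Col1a2 was lower (268 CPM in siPAK4, 639 CPM in siControl). The other, Dcn, did not pass (479 and 425 CPM, adjusted p = 0.15). The stellate markers Lrat (0.216 CPM in siPAK4, 0.0269 CPM in siControl) and Gfap (0 and 0.0181 CPM) were near 0. Colec11 (0.454 and 0.5499 CPM), Lhx2 (0.656 and 0.469 CPM), Rgs5 (1.69 and 1.35 CPM) and Hand2 (2.94 and 2.71 CPM) were low. Of the same list, Reln (34.6 and 30.9 CPM), Pdgfrb (15.2 and 27.4 CPM) and Des (12.4 and 17.9 CPM) were more abundant. The genes from Lrat to Des here were named after their values were seen. Macrophage markers summed to 5623 to 8996 CPM in siPAK4 and 9847 to 11356 CPM in siControl, and 9 of 14 tested were lower and 0 higher. Lyz2 made up most of this sum (mean 4847 CPM in siPAK4, 7812 CPM in siControl), with Itgam next by mean over the 8 libraries (378 and 456 CPM). Endothelial markers summed to 3765 to 5490 CPM in siPAK4 and 6316 to 6536 CPM in siControl, with Cdh5 and Stab1 the most abundant, and 6 of 12 were lower and 3 higher. In such mixed RNA, fewer cells of a type, less RNA per cell and changed levels of single genes cannot be told apart. For comparison with these marker counts, 14.5% of all tested genes were lower and 12.4% higher.

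By length-scaled level, in the deposited TPM values, the 10 genes spanned a wide range in both groups. Ftl1, the ferritin light chain gene, averaged 20801 ± 2384 TPM in siPAK4 and 20174 ± 758 TPM in siControl (SD, n = 4 each for all levels here). It was the gene with the most reads of any in all 4 siPAK4 libraries and in siControl replicates 3 and 4. Fth1, the heavy chain gene, followed with 8421 ± 188 TPM in siPAK4 and 8869 ± 1103 TPM in siControl, and Gpx4 with 749 ± 81.7 TPM and 742 ± 103 TPM. The 3 genes kept this order in every library. Below them, Slc3a2 averaged 215 ± 15.4 TPM in siPAK4 and 147.5 ± 8.20 TPM in siControl, and Slc40a1 163 ± 7.44 TPM in siPAK4 and 295 ± 36.9 TPM in siControl, so that Slc3a2 stood above Slc40a1 in siPAK4 and below it in siControl. Ncoa4 (136 ± 17.4 TPM in siPAK4, 151 ± 7.87 TPM in siControl) and Acsl4 (121 ± 5.71 and 128 ± 14.6 TPM) were of similar level. In siPAK4 the ranges of Slc40a1 and Ncoa4 and those of Ncoa4 and Acsl4 overlapped. In siControl Slc3a2 overlapped with both Ncoa4 and Acsl4. Tfrc (74.4 ± 7.13 TPM in siPAK4, 86.5 ± 7.27 TPM in siControl), Lpcat3 (42.0 ± 2.15 and 52.0 ± 3.00 TPM) and Aifm2 (16.0 ± 1.10 and 15.5 ± 1.51 TPM) were lowest, in that order in each library.

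**Figure D1:**
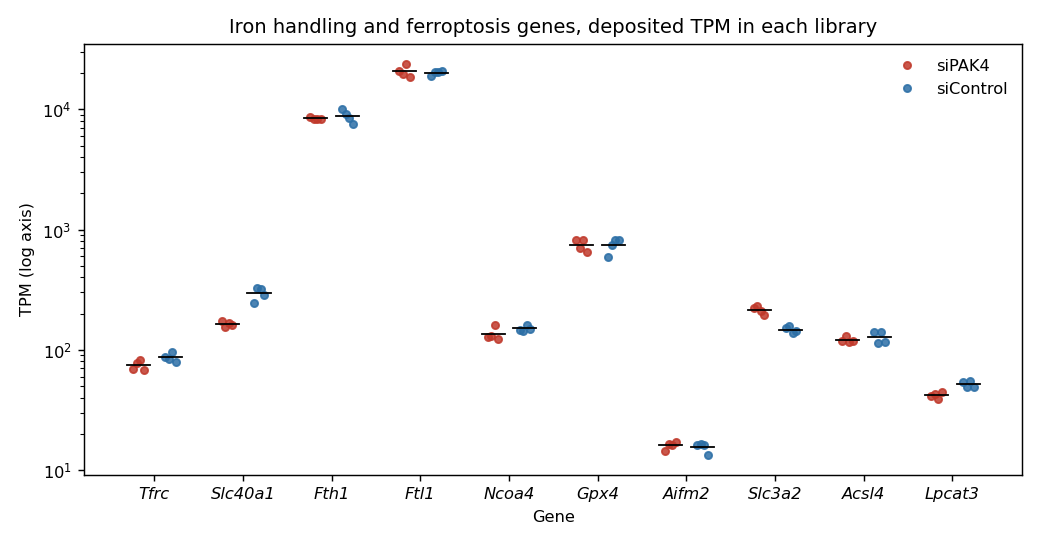
Deposited TPM of the 10 genes on a log axis, 1 point per library, siPAK4 in red at the left and siControl in blue at the right of each gene, with a line at the group mean. The ferritin genes Ftl1 and Fth1 lie at 7551 TPM or more in every library, and Aifm2 is the lowest of the 10.

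Between the groups, 2 of the 10 genes were lower with siPAK4 (Slc40a1 and Lpcat3), 1 was higher (Slc3a2) and 7 did not pass the test. Of all tested genes, 14.5% were lower and 12.4% higher (26.9% in either direction), so 3 of 10 is close to the share over all genes. The same 3 were the genes whose groups did not overlap, against 28.8% of all tested genes. The median log2 fold change of the 10 was −0.11, against 0.0052 over all tested genes. Without siPAK4 replicate 3, Tfrc and Ncoa4 were also lower, which made 4 lower and 1 higher, against 16.5% lower and 13.7% higher over all genes in the same fit (30.2% in either direction).

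**Figure D2:**
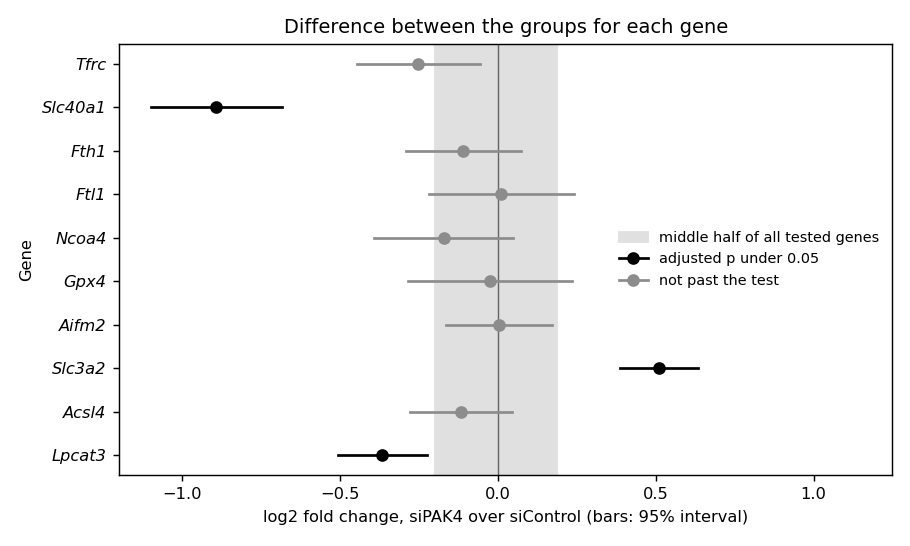
Log2 fold change of each gene, siPAK4 over siControl, as a point with its 95% interval, in black where the adjusted p was under 0.05 and in grey where it was not. The grey band runs from −0.20 to 0.19, the lower to the upper quartile of all tested genes. The whole intervals of Slc40a1 (−0.89), Lpcat3 (−0.37) and Slc3a2 (0.51) lie outside it.

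Among the 10, the largest difference was in the RNA of the iron exporter gene, and export itself was not measured. Slc40a1, which encodes ferroportin, the known exporter of iron from mammalian cells, had 250.4, 225, 273 and 255 CPM in siPAK4 replicates 1 to 4, against 379.7, 511, 507 and 464 CPM in siControl replicates 1 to 4. Every siPAK4 library lay below every siControl library, and siControl replicate 1 was the lowest of its group. The level was 0.539-fold that of siControl, which is −0.89 on the log2 scale (SE 0.0945, adjusted p = 5.0e-05). Leaving out each library in turn gave −0.98 to −0.84 with adjusted p of 0.00042 or below. The gene spans chromosome 1, 45908070 to 45926532 (mm10, NCBI gene 53945). Of the macrophage markers, 9 of 14 tested were also lower, against 14.5% of all tested genes. So were 6 of 12 tested endothelial markers and 6 of 12 tested markers of stellate cells and fibroblasts. All tested genes of the stellate and fibroblast list are given here. Des, Pdgfrb, Col1a1, Col1a2, Col3a1 and Acta2 were lower, and Dcn, Reln, Hand2, Lhx2, Rgs5 and Colec11 did not pass. The Kupffer cell gene Cd5l averaged 42.0 CPM in siPAK4 and 283 CPM in siControl (log2 fold change −2.75), and the complement gene C1qb 48.9 and 199 CPM (−2.02). Clec4f, of the macrophage marker list, had 0 to 12 reads per library and was not tested. The general macrophage genes Lyz2 (−0.69, adjusted p = 0.0054), Csf1r (−0.31, adjusted p = 0.019) and Itgam (−0.27, adjusted p = 0.048) were lower, while Adgre1 (425 CPM in siPAK4, 386 CPM in siControl, adjusted p = 0.34) and Cd68 (234 and 241 CPM, adjusted p = 0.72) did not pass. Apart from Lyz2 and Itgam, the macrophage genes named here were picked from their marker list after their values were seen. The part of macrophage RNA, or of RNA from another cell type, in the fall of Slc40a1 was not tested.

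Tfrc, the transferrin receptor gene, through which cells take up transferrin-bound iron, did not pass at the threshold. It had 148, 165, 199 and 157 CPM in siPAK4 replicates 1 to 4, against 196, 194, 220.0 and 186 CPM in siControl replicates 1 to 4. The groups overlapped through siPAK4 replicate 3 alone, which lay above siControl replicates 1, 2 and 4. The log2 fold change was −0.25 (SE 0.0891, 95% interval −0.45 to −0.057, adjusted p = 0.056). Without siPAK4 replicate 3 it was −0.35 (SE 0.0605, adjusted p = 0.00087), and Tfrc was called lower. Tfrc was also called lower by DESeq2 (−0.25, adjusted p = 0.033) and with a minimum mean of 1 CPM (adjusted p = 0.049). Over all alternatives the adjusted p ran from 0.00087 to 0.23.

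The ferritin genes showed no difference beyond the spread between libraries. Fth1, whose product oxidises iron for storage, had 3540, 3355, 3834 and 3730.4 CPM in siPAK4 replicates 1 to 4, against 4366, 4055, 3748 and 3437 CPM in siControl replicates 1 to 4 (log2 fold change −0.11, 95% interval −0.29 to 0.072, adjusted p = 0.37). Ftl1, whose product helps the iron core form, had 8778, 8196, 11435 and 8477 CPM in siPAK4, against 8428, 9293, 9181 and 9714 CPM in siControl (0.011, 95% interval −0.22 to 0.24, adjusted p = 0.96). Library siPAK4 replicate 3 held the highest Ftl1 value of all 8, and without it the log2 fold change was −0.11 (adjusted p = 0.21). The table also lists 3 Ftl1 pseudogenes, whose reads together came to 4.62% to 5.58% of those of Ftl1, and 2 Gpx4 pseudogenes with 16.0% to 19.4% of those of Gpx4. How reads matching several copies were counted is not given in the sources used here, so the separate values are uncertain. With the pseudogene reads added, the log2 fold change was 0.013 for Ftl1 (adjusted p = 0.95) and −0.022 for Gpx4 (adjusted p = 0.91). The ratio of Fth1 to Ftl1, in TPM, averaged 0.409 ± 0.0455 in siPAK4 and 0.441 ± 0.0705 in siControl (SD, n = 4 each; exact two-sided permutation test, p = 0.46, 0.57 adjusted over 5 ratios). Its log2 difference was −0.105, and −0.026 without siPAK4 replicate 3. The ratio of Tfrc to Fth1 averaged 0.00884 ± 0.00099 in siPAK4 and 0.00984 ± 0.0012 in siControl (exact permutation p = 0.26, adjusted 0.43, n = 4 each).

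Ncoa4, the cargo receptor that carries ferritin to the lysosome, had 196, 204, 279 and 211 CPM in siPAK4 replicates 1 to 4, against 239, 238, 268 and 258 CPM in siControl replicates 1 to 4. The siPAK4 libraries lay below the siControl group, apart from replicate 3, which lay above it. The log2 fold change was −0.17 (SE 0.101, adjusted p = 0.24), and −0.30 without siPAK4 replicate 3 (SE 0.0553, adjusted p = 0.0013). That library also held the highest sum of macrophage markers in its group, 8996 CPM against 5623 to 6474 CPM in the other 3. Most of that sum was Lyz2 (6738 CPM, against 3983 to 4567 CPM in the other 3). The same library held the lowest sum of endothelial markers, 3765 CPM against 4727 to 5490 CPM. The part of these markers in the values of Tfrc, Ftl1 and Ncoa4 there was not tested.

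**Figure D3:**
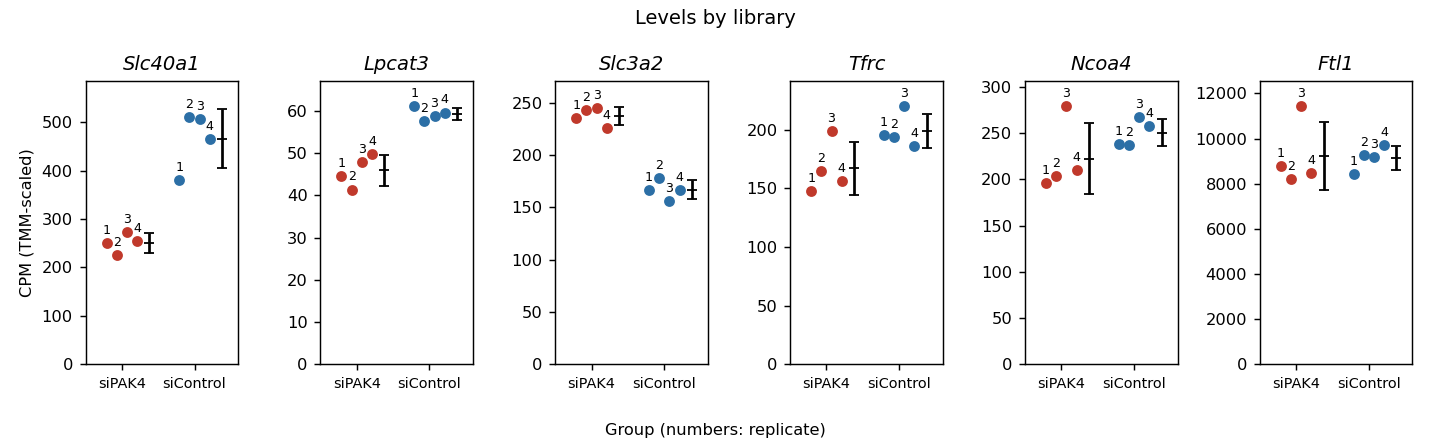
TMM-scaled CPM in each library for 6 of the genes, siPAK4 in red and siControl in blue, numbered by replicate, with the mean and SD of each group in black. Slc40a1, Lpcat3 and Slc3a2 separate the groups, while siPAK4 replicate 3 is the highest siPAK4 library for Tfrc (199 CPM), Ncoa4 (279 CPM) and Ftl1 (11435 CPM).

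The 2 direct defences against lipid peroxides did not differ detectably. Gpx4 encodes the selenoenzyme that reduces phospholipid hydroperoxides with glutathione. It had 283, 243, 321 and 247 CPM in siPAK4 replicates 1 to 4, against 218, 275, 305 and 315 CPM in siControl replicates 1 to 4 (log2 fold change −0.026, 95% interval −0.29 to 0.23, adjusted p = 0.90). Both groups varied widely, and the lowest of all 8 values was siControl replicate 1. Aifm2 encodes FSP1, which regenerates ubiquinol as a radical trap. It had 17.9 to 22.0 CPM in siPAK4 and 18.5 to 20.5 CPM in siControl (0.0031, 95% interval −0.17 to 0.17, adjusted p = 0.98). Aifm2 overlaps Macroh2a2 on the other strand, which averaged 2.22 CPM in siPAK4 and 3.16 CPM in siControl.

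Slc3a2 was the gene of the 10 that rose. It encodes the heavy chain, also called CD98, that brings several amino acid transporters to the cell surface, among them the cystine importer of the glutathione pathway. Its level was 235, 243, 245 and 225 CPM in siPAK4 replicates 1 to 4, against 166, 178, 156 and 166 CPM in siControl replicates 1 to 4. The groups did not overlap, and libraries within each were close together. The level was 1.42-fold that of siControl (log2 fold change 0.51, SE 0.0562, adjusted p = 6.2e-05), and 0.48 to 0.54 with each library left out in turn (adjusted p of 0.00047 or below). Slc3a2 lies on chromosome 19, 8706882 to 8723369 (mm10, NCBI gene 17254).

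The light chains that pair with Slc3a2 went different ways. Slc7a11, the light chain of the cystine importer, had 739.6, 898, 913 and 751 CPM in siPAK4 replicates 1 to 4, against 499.7, 377, 462 and 396 CPM in siControl replicates 1 to 4. All siPAK4 values exceeded all siControl values (1.90-fold, log2 fold change 0.93, SE 0.103, adjusted p = 6.9e-05). Slc7a8 (−0.71, adjusted p = 0.00046) and Slc7a7 (−0.51, adjusted p = 0.00078), which carry neutral and cationic amino acids, were lower. Slc7a5, the large neutral amino acid transporter, did not pass (−0.18, adjusted p = 0.25), nor did Slc7a6 (−0.014, adjusted p = 0.90), and Slc7a10 had no read in any library. The whole list of light chains is given, beyond the genes that the naming rule picks. The ratio of Slc3a2 to Slc7a11, in TPM, was 1.02 to 1.19 in siPAK4 and 1.27 to 1.79 in siControl, so that the groups did not overlap (exact two-sided permutation test, p = 0.029, adjusted 0.071, n = 4 each). The ratio of Slc3a2 to Slc7a5 was 16.6 to 26.3 in siPAK4 and 11.4 to 13.1 in siControl (exact permutation p = 0.029, adjusted 0.071, n = 4 each). The value of 26.3 was siPAK4 replicate 3, against 16.6 to 19.1 in the other siPAK4 libraries. The log2 difference of this ratio was 0.69, and 0.55 without that library. With 4 libraries against 4, p = 0.029 is the smallest this exact permutation test can give, and neither ratio passed after adjustment over the 5 ratios.

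**Figure D4:**
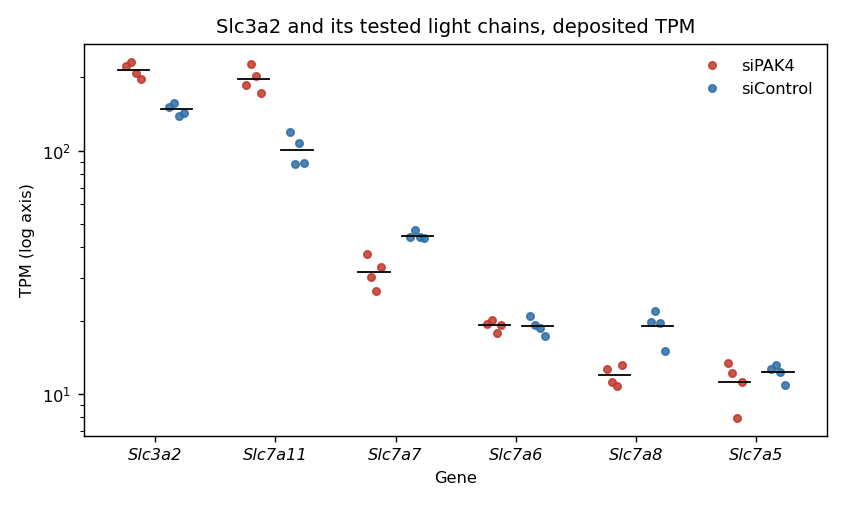
Deposited TPM, on a log axis, of Slc3a2 and the 5 light chains with enough reads to test, 1 point per library, siPAK4 in red at the left and siControl in blue at the right of each gene, lines at the means. Slc3a2 and Slc7a11 are higher and Slc7a7 and Slc7a8 lower in all siPAK4 libraries, without overlap.

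Of the 2 genes that shape which lipids can be oxidised, Lpcat3 fell. It encodes the acyltransferase that places polyunsaturated fatty acids into phospholipids. Its level was 44.7, 41.4, 48.0 and 49.7 CPM in siPAK4 replicates 1 to 4, against 61.1, 57.5, 58.7 and 59.6 CPM in siControl replicates 1 to 4. The groups did not overlap, and siPAK4 varied more among its libraries than siControl. The level was 0.776-fold that of siControl (log2 fold change −0.37, SE 0.0645, adjusted p = 0.0015), with −0.41 to −0.32 and adjusted p of 0.0059 or below when each library was left out. Lpcat3 (chromosome 6, 124663094 to 124704716, mm10, NCBI gene 14792) overlaps Emg1 on the other strand. Emg1 averaged 53.4 CPM in siPAK4 and 54.1 CPM in siControl and its groups overlapped. The strand setting of the counting is not given in the sources used here, so reads from the 2 genes cannot be told apart where they overlap. Acsl4, which activates arachidonic acid for the same route, had 262, 282, 290.4 and 286 CPM in siPAK4, against 327, 271, 335 and 283 CPM in siControl (−0.12, 95% interval −0.28 to 0.046, adjusted p = 0.28). The ratio of Acsl4 to Gpx4, in TPM, averaged 0.164 ± 0.0224 in siPAK4 and 0.176 ± 0.0409 in siControl (exact permutation p = 0.71, adjusted 0.71, n = 4 each).

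The 121 further genes of the same pathways, in 9 lists, place the 10 in context. Of these, 112 could be tested. The test called 29 higher and 25 lower (48.2%, against 26.9% of all tested genes), and 58 did not pass. Their median log2 fold change was 0.0063, against 0.0052 over all tested genes. The lists were chosen with earlier results of these data known, so the share called in them is a description only. Without siPAK4 replicate 3 the counts were 29 higher and 27 lower. For comparison with the counts by list below, 12.4% of all tested genes were higher and 14.5% lower. The share called was 33.3% in both the iron sensing and the heme list and 22.2% in the ferritinophagy list, close to that over all genes.

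Among 14 tested genes of iron import, export and their systemic regulators, 6 were higher and 4 lower (median 0.15). Slc11a2, which encodes the ferrous iron importer DMT1, had 127 ± 3.28 CPM in siPAK4 and 84.5 ± 5.87 CPM in siControl (0.59 on the log2 scale, adjusted p = 2.8e-05). The metalloreductase gene Steap4 also rose (190.1 ± 21.3 and 85.3 ± 11.6 CPM; 1.16, adjusted p = 1.5e-05), as did Lcn2, whose product binds iron-carrying siderophores (42.6 ± 7.35 and 6.26 ± 2.35 CPM; 2.77, adjusted p = 2.3e-05). Also higher, and named after their values were seen, were Cp (1.06, adjusted p = 0.00047), Heph (0.51, adjusted p = 0.00012) and Slc39a8 (0.40, adjusted p = 0.0083). The 4 lower genes, named likewise, were Steap3 (−0.61, adjusted p = 0.00041), Cybrd1 (−1.32, adjusted p = 0.0094), Hfe (−0.23, adjusted p = 0.012) and Trf (−0.34, adjusted p = 0.033). Cybrd1 was low, with 0.455 CPM in siPAK4 and 1.14 CPM in siControl. Hamp, which encodes hepcidin, the liver hormone that degrades ferroportin, had 0 to 3 reads per library and was not tested.

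Among 12 tested genes of iron sensing, chaperones and mitochondrial iron, 3 were higher and 1 lower (median 0.022). Fbxl5, the ubiquitin ligase subunit that removes iron regulatory protein 2, rose (log2 fold change 0.42, adjusted p = 0.0024), as did the mitochondrial iron importer genes Slc25a37 (0.59, adjusted p = 0.0027) and Slc25a28 (0.41, adjusted p = 0.0035). Aco1, which encodes iron regulatory protein 1, fell slightly, with 82.9 to 90.2 CPM in siPAK4, against 93.7 to 98.1 CPM in siControl (−0.17, adjusted p = 0.025). Ireb2, which encodes iron regulatory protein 2, did not pass (−0.12, 95% interval −0.25 to 0.013, adjusted p = 0.17).

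Of 15 heme handling genes, 3 were higher and 2 lower (median 0.13). Hmox1, the heme oxygenase gene, was abundant and did not pass, with 1369 ± 52.1 CPM in siPAK4 and 1250 ± 51.4 CPM in siControl (SD, n = 4 each; log2 fold change 0.13, adjusted p = 0.13). The scavenger receptor gene Lrp1 fell (−0.81, adjusted p = 4.7e-05). The genes for the plasma scavengers haptoglobin, Hp (1.51, adjusted p = 0.00016), and hemopexin, Hpx (1.88, adjusted p = 0.00038), rose. Both are made chiefly by hepatocytes. In the same libraries 4 of 6 tested hepatocyte markers were higher and 0 lower, against 12.4% higher over all tested genes. The marker Alb averaged 7.83 CPM in siPAK4 and 1.75 CPM in siControl, while Ass1, the most abundant of the list, averaged 179 and 165 CPM and did not pass (adjusted p = 0.46). The summed markers ranged from 173 to 203 CPM in siPAK4 and from 137 to 208 CPM in siControl, and the part of hepatocyte RNA was not tested. Red cell markers summed to 1.55 to 2.56 CPM in siPAK4 and 2.36 to 3.00 CPM in siControl, with Epor and Alas2 the most abundant.

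The glutathione genes that passed all rose: 3 of 8 tested were higher and 0 lower (median 0.24). They were Gclc (log2 fold change 0.74, adjusted p = 3.1e-05) and Gclm (0.39, adjusted p = 0.0029), subunits of the enzyme that starts glutathione synthesis, and Gss (0.41, adjusted p = 0.0015), which completes it. Gsr, chosen after its values were seen, did not pass although its groups did not overlap (0.18, adjusted p = 0.059). The radical-trapping defences other than Gpx4 and Aifm2 had 4 of 9 genes higher and 1 lower (median 0.17). Gch1, which starts tetrahydrobiopterin synthesis (0.74, adjusted p = 2.1e-05), and the peroxiredoxin gene Prdx6 (0.71, adjusted p = 2.3e-05) rose. The 1 lower gene of this list was Dhcr7 (−0.71, adjusted p = 6.7e-05). It is not itself a defence, since its product consumes the radical-trapping sterol 7-dehydrocholesterol.

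Among 13 tested glutathione peroxidases and selenoprotein synthesis genes, 4 were higher and 2 lower (median 0.15). Selenop, the selenium carrier gene, rose to 1652 ± 159 CPM in siPAK4, against 1093 ± 23.7 CPM in siControl (0.60 on the log2 scale, adjusted p = 0.00012). The plasma peroxidase gene Gpx3 fell (2.16 ± 0.54 and 9.54 ± 0.687 CPM; −2.14, adjusted p = 5.9e-06), and so did Gpx8 (−0.39, adjusted p = 0.0067). In the ferritinophagy list 2 of 9 were higher and 0 lower (median −0.0075). These were Sqstm1, an autophagy receptor gene (0.53, adjusted p = 6.7e-05), and Tax1bp1, whose product takes part in the delivery of ferritin with Ncoa4 (0.18, adjusted p = 0.047).

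In the list of lipid remodelling and lipid peroxidation, 13 of 27 tested genes fell, 3 rose and 11 did not pass (median −0.35). The desaturase genes Fads2, which acts on polyunsaturated fatty acids (55.7 ± 3.77 CPM in siPAK4, 97.5 ± 7.32 CPM in siControl; −0.81 on the log2 scale, adjusted p = 1.1e-05), and Scd1, which makes monounsaturated ones (73.3 ± 7.16 and 147 ± 18.5 CPM; −1.01, adjusted p = 2.4e-05), both fell. So did Lpcat1, which acts beside Lpcat3 on phospholipids and was named after its values were seen (−0.60, adjusted p = 4e-05). The acyl-CoA synthetase gene Acsl1 rose (137.7 ± 17.5 and 63.2 ± 8.04 CPM; 1.12, adjusted p = 2e-05), as did Ptgs2, which encodes cyclooxygenase 2 (0.87, adjusted p = 9.3e-05).

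**Figure D5:**
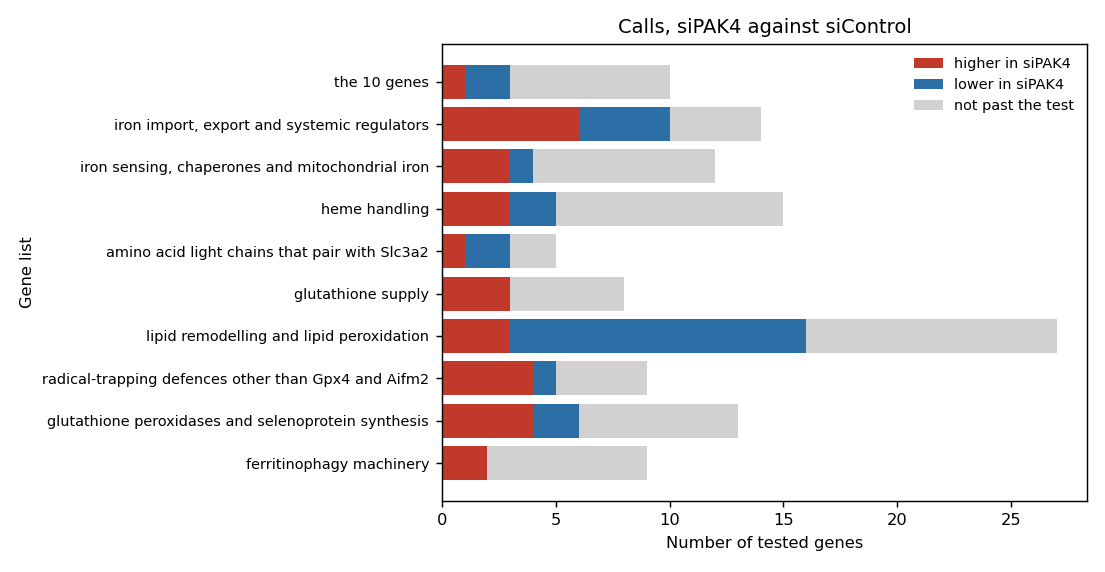
Number of tested genes called higher (red), lower (blue) or not past the test (grey) in siPAK4 against siControl, for the 10 genes and for each of the 9 related lists. The lipid list has 13 lower and 3 higher genes, and the glutathione list 3 higher and 0 lower. Over all tested genes 12.4% were higher and 14.5% lower.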

How the data were processed

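The authors deposited 1 table with whole-number read counts, FPKM and TPM per gene, per the file headers. The deposited counts carry no normalization. The FPKM deposited by the authors are relative to depth and length, and their deposited TPM to a fixed total in each library. The tools listed in the submitters' processing notes are HISAT2 2.1.0 and Bowtie2 2.3.4.1 as aligners, StringTie 2.1.3b, and, for base calls and read quality, bcl2fastq 2.20.0 with FastQC 0.11.7; the build is mm10. A stranded mRNA kit was used, per the labels' protocols, and the 8 samples share 1 batch label. How counts were made is not given in the sources used here.

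Counts were tested with edgeR 4.0.16 (filterByExpr, minimum count 10, TMM, robust quasi-likelihood test) over 17975 genes, with Benjamini-Hochberg adjustment and a threshold of 0.05. CPM are relative to the TMM-scaled library size. Log2 fold changes are siPAK4 over siControl, with standard errors from the F statistic. The procedure was tested on simulated counts. Ratios of TPM were compared by exact permutation over libraries. DESeq2 1.42.0, limma 3.58.1 (limma-voom, and log2 of TPM or FPKM with a pseudocount of 1 or 0.1), other scalings and filters, each library left out and a replicate block were alternatives. Pairs of replicates differed beyond sampling noise (chi-square per degree of freedom 13.9 to 76.2). The search for iron-responsive elements was extended to transcripts after the promoter windows, present for 9 of the 10 genes, held none. Coordinates of genes are from RefSeq GRCm38.p6, counted from 1.

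The 10 genes, the lists and the tests were chosen with earlier results of these data known. The genes named were the 10, Pak4, 8 fixed genes (Slc7a11, Hmox1, Aco1, Ireb2, Fbxl5, Hamp, Lcn2, Ptgs2), up to 3 of smallest adjusted p in each related list and the 2 most abundant of each marker list, besides the gene most similar to each of the 10. Overlapping genes, the light chains and other genes named beyond this rule are marked where they appear. Marker lists covered stellate cells with fibroblasts, macrophages, endothelial cells, hepatocytes, red cells, cholangiocytes, lymphocytes and neutrophils.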

Additional observations from a re-analysis of the deposited data

How the results depend on the processing

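Slc40a1, Lpcat3 and Slc3a2 kept their direction and stayed past the threshold under all 19 alternatives, with log2 fold changes of −0.98 to −0.78, −0.41 to −0.24 and 0.48 to 0.60. Gpx4, Aifm2, Acsl4, Fth1 and Ftl1 passed under none of them. Tfrc passed under 4 and Ncoa4 under 1, the fit without siPAK4 replicate 3 (adjusted p of 0.00087 for Tfrc and 0.0013 for Ncoa4). The count of the 10 genes called lower was 2 to 4 with a library left out, and 3, through Tfrc, with DESeq2, with a minimum mean of 1 CPM and with the replicate block (Tfrc −0.26, adjusted p = 0.014); the count called higher was 1 under all 19. Over all genes, library totals alone gave 3877 higher genes, and FPKM gave 3601 higher and 1715 lower with a pseudocount of 1, and 3606 and 1714 with 0.1, against 2227 and 2605 by TMM. Of the related genes, 45 were higher with library totals, against 29. The share of calls that were higher was then 67.6% with library totals and 67.7% and 67.8% with FPKM, against 46.1%. The TMM factors were 1.02 to 1.05 in siPAK4 and 0.958 to 0.978 in siControl. The median log2 fold change of all tested genes was 0.0052 by TMM and 0.094 with library totals. With FPKM it was 0.049 with a pseudocount of 1 and 0.086 with 0.1. The cause of these shifts was not tested. In TMM-scaled CPM none of the 5 ratios crossed the threshold. With each library left out they were recomputed without a test; Acsl4 over Gpx4 changed sign among these alternatives (−0.18 to 0.059 on the log2 scale), and the other 4 kept their direction. Same-numbered libraries deviated together little (r of −0.047 to 0.10 across genes), and 2 of 4 siPAK4 libraries correlated best with their own number, so the numbers were not taken as pairs; with the replicate block 2056 genes were higher and 2531 lower.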

Other observations

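For each of the 10 genes, the most similar gene over the 8 libraries was looked up among 11360 genes with a mean of at least 5 CPM, by Pearson's r of log2 CPM. These values are a description across 8 libraries that share the group difference, and the highest of so many candidates is high by construction. Slc40a1 was closest to Leprot (r = 0.996), Slc3a2 to Sqstm1 (r = 0.993), the autophagy receptor gene described above, and Lpcat3 to Mavs (r = 0.988), the adaptor gene of the RNA sensors. Gpx4 was closest to Atp5j2 (r = 0.983), Acsl4 to Wdr77 (r = 0.971), Aifm2 to Def6 (r = 0.929), Tfrc to Xrcc5 (r = 0.986) and Fth1 to Casp9 (r = 0.922). Ncoa4 was closest to Fcgr3 (r = 0.990), which encodes an immunoglobulin receptor of macrophages, and Ftl1 to Capg (r = 0.983), an actin-capping protein gene. With group means removed, Ftl1 was closest to Ostf1 (r = 0.998), Ncoa4 to Alcam (r = 0.993), Tfrc to Coq3 (r = 0.995) and Gpx4 to the ribosomal protein gene Rps14 (r = 0.992).

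RefSeq promoter windows on GRCm38.p6, from 250 bases before to 50 after each start, were present for 9 of the 10 genes. TGACNNNGC, letters of the antioxidant response element, was searched on both strands and lay in 1 of their 16 windows, for Ncoa4, against 12.4% of all 32851 windows. No match says only that these letters are not in that window.

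Cholangiocyte markers summed to 1032 to 1502 CPM in siPAK4 and 1136 to 1609 CPM in siControl, nearly all from Spp1, with Cftr next. Lymphocyte markers summed to 0.565 to 0.834 CPM in siPAK4 and 0.441 to 0.607 CPM in siControl, with Cd3d and Nkg7 the most abundant, and neutrophil markers, mainly S100a8 and then Camp, to 10.8 to 14.1 CPM in siPAK4 and 6.86 to 11.4 CPM in siControl. Dcn and Col1a2 were the most abundant stellate cell and fibroblast markers. In 30 groups of 4 values of the 10 genes and the 5 ratios, 0 held a library that Dixon's test set apart from the other 3.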
